A study of Saccharomyces cerevisiae with 12 samples.

Results

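The genes described are the 56 budding yeast genes, of 7126 features counted, whose standard names consist of UTP, NOP, RRP or NOC followed by a number. They comprise 18 UTP, 17 NOP, 18 RRP and 3 NOC genes, chosen by name alone. Ribosome synthesis begins in the nucleolus, where RNA polymerase I makes a long precursor of the ribosomal RNAs. UTP proteins and other factors assemble on that precursor as the small-subunit processome, snoRNPs modify it, and the nuclear exosome trims it from its 3' ends. In yeast the genes for these factors are transcribed in parallel, many from promoters with the PAC and RRPE elements, and they are known to be lowered for a time when cells meet acute stress.

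The libraries come from polyadenylated RNA of haploid BY4741-derived cells (a laboratory strain of Saccharomyces cerevisiae) in synthetic medium whose nitrogen source was ammonium chloride. All 4 groups share the alleles MATa, his3delta1, ura3delta0, leu2delta0, lys2delta0 and crz1delta::LEU2, and a HYG-TEFp-GFP(Y66F) insertion on chromosome VI, with GFP(Y66F) behind the constitutive TEF promoter. The strain called crz1 lacks only the transcription factor Crz1, a main target of the phosphatase calcineurin, and the strain called crz1cnb1 also carries cnb1delta::KanMx, which removes calcineurin's regulatory subunit. Untreated cells of either strain (0 h) were set against cells kept for 48 h in medium with 400 mM KCl and diluted at intervals of 12 h, with 3 libraries numbered 1 to 3 in each of the 4 groups. No group holds a strain with Crz1 or untreated cells at 48 h, so KCl and 48 h of culture cannot be told apart.

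The 12 libraries held 21305485 to 21599279 counts. CNB1, deleted in crz1cnb1, had 14 to 68 counts in the crz1cnb1 libraries and 1346 to 3139 in the crz1 libraries. CRZ1 had 3 to 19 counts in every library. The a-cell genes MFA1, MFA2, STE2, STE6, BAR1 and AGA2 had 1217 to 34280 counts, whereas the alpha-cell pheromone genes MF(ALPHA)1 and MF(ALPHA)2 had 3 to 16, STE3 16 to 220 and SAG1 458 to 721. Library composition moved with the groups: with library totals in place of TMM scaling (edgeR's trimmed mean of M-values), the median log2 difference over all features shifted by 0.088 for KCl in crz1, by 0.162 for KCl in crz1cnb1 and by 0.113 between the strains at 0 h. In bulk RNA, fewer cells expressing a gene and less of its RNA per cell cannot be told apart. The submitters describe triplicate experiments, but nothing in the labels says that replicates came from separate cultures. The p-values therefore measure the spread between these libraries.

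The promoters of the named genes are given first because the 2 elements are what most of these genes have in common apart from their names. The cores searched were GATGAG for PAC, on either strand (read as CTCATC on the other), and AAAATTTT for RRPE, which is its own reverse complement. The window ran from 250 bases before to 50 bases after the annotated gene start in RefSeq R64, and copies of GATGAG may overlap each other. Of the 56 windows, 47 (83.9%) held a PAC core, 34 (60.7%) an RRPE core and 30 (53.6%) both. Among the 6001 windows of all protein-coding genes these shares were 20.4%, 9.03% and 4.38%. The 5 members with neither core were RRP42, RRP45, RRP46, UTP22 and UTP30, named here after their windows were read. The 7 exosome genes held fewer cores than the other role groups of more than 2 genes, with PAC in 3, RRPE in 1 and both in 0. A match describes these letters in this window and is not a measured binding site.

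Below are windows of 300 bases for 4 members with both cores, taken from RefSeq R64 on the plus strand and read 5' to 3'. They show how close the 2 elements lie, and capitals mark the cores. Positions count from the first base of the gene as 0. NOP1 lies at chrIV:427114-427413, NOP7 at chrVII:695167-695466, NOC2 at chrXV:727262-727561 and UTP9 at chrVIII:491681-491980.
NOP1: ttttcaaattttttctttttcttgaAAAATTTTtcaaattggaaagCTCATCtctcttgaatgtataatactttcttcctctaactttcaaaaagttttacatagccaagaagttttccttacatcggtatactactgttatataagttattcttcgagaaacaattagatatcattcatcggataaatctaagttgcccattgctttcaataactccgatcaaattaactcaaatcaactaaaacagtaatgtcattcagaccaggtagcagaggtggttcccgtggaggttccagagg
NOP7: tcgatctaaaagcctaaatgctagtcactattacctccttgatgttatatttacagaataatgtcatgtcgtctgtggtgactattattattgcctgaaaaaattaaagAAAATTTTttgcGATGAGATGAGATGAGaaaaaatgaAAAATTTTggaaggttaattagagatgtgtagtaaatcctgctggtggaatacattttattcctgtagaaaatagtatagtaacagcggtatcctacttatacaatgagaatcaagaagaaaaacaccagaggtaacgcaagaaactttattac
NOC2: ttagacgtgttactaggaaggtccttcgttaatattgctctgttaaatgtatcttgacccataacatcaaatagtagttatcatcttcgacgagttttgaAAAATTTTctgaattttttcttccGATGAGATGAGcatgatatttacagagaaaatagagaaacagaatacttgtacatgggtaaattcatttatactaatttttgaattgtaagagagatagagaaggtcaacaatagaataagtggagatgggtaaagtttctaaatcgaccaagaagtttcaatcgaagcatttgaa
UTP9: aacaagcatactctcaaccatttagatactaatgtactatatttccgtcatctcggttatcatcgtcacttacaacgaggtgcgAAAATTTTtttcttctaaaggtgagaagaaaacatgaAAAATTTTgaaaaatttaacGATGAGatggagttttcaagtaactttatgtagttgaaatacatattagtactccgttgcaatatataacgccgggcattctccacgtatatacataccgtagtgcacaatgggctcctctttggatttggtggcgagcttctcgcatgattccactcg
In NOP1, which encodes fibrillarin, the RRPE core began at -225 and a single PAC core on the opposite strand at -204. In NOP7, whose product joins Erb1 and Ytm1 in the maturing large subunit, 3 overlapping PAC cores began at -129, -124 and -119, between RRPE cores at -141 and -104. In NOC2, a partner of Noc1 and Noc3 in large-subunit transport, RRPE began at -150 and overlapping PAC cores at -126 and -121. In UTP9, a UTP-A subunit, RRPE cores began at -166 and -129 and PAC at -109.

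The members do not share a place in the genome. RRP15 and NOC4 on chromosome XVI were the only pair of members next to each other in the RefSeq gene order. There 6 members neighboured a member or a gene from a list of 109 other ribosome biogenesis factors. Biogenesis genes outside that list were not counted. None of the 56 overlapped another gene of that table. No source states whether counting used the RNA strand, so reads from unlisted antisense transcripts cannot be separated.

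All 56 genes passed the filter on low counts, with 388 to 18992 counts per library. Levels of different genes were compared on the deposited TPM scale, which divides by gene length. The 3 highest members all belong to snoRNPs: NOP10, a core protein of box H/ACA snoRNPs, averaged 1451 TPM (range over the 12 libraries 1138 to 1752), NOP1, the methyltransferase of box C/D snoRNPs, averaged 513 (393 to 725), and NOP56, a box C/D core protein, averaged 364 (264 to 455). On this scale the range of NOP10 stood clear of that of NOP1, while the ranges of NOP1 and NOP56 overlapped. NOP10 is only 177 bases long, and its counts (5177 to 8777 per library) lay below those of NOP1 (10525 to 18946). The 3 lowest were NOP8, a large-subunit assembly factor, at 19.9 TPM (13.1 to 30.4), UTP20, a very large scaffold protein of the processome, at 24.4 (19.2 to 28.9), and RRP36, needed for early cleavages of the precursor, at 24.8 (15.7 to 34.1). These 3 ranges overlapped. Of the other members, most sat between 50 and 130 TPM: 38 of the 56 had a mean in that interval, 11 a lower and 7 a higher one. The median member averaged 77.2 TPM, against 23.5 for all features of the TPM table. Within a member, the highest library exceeded the lowest by 1.3-fold to 2.98-fold, with a median of 2.2-fold.

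**Figure D1:**
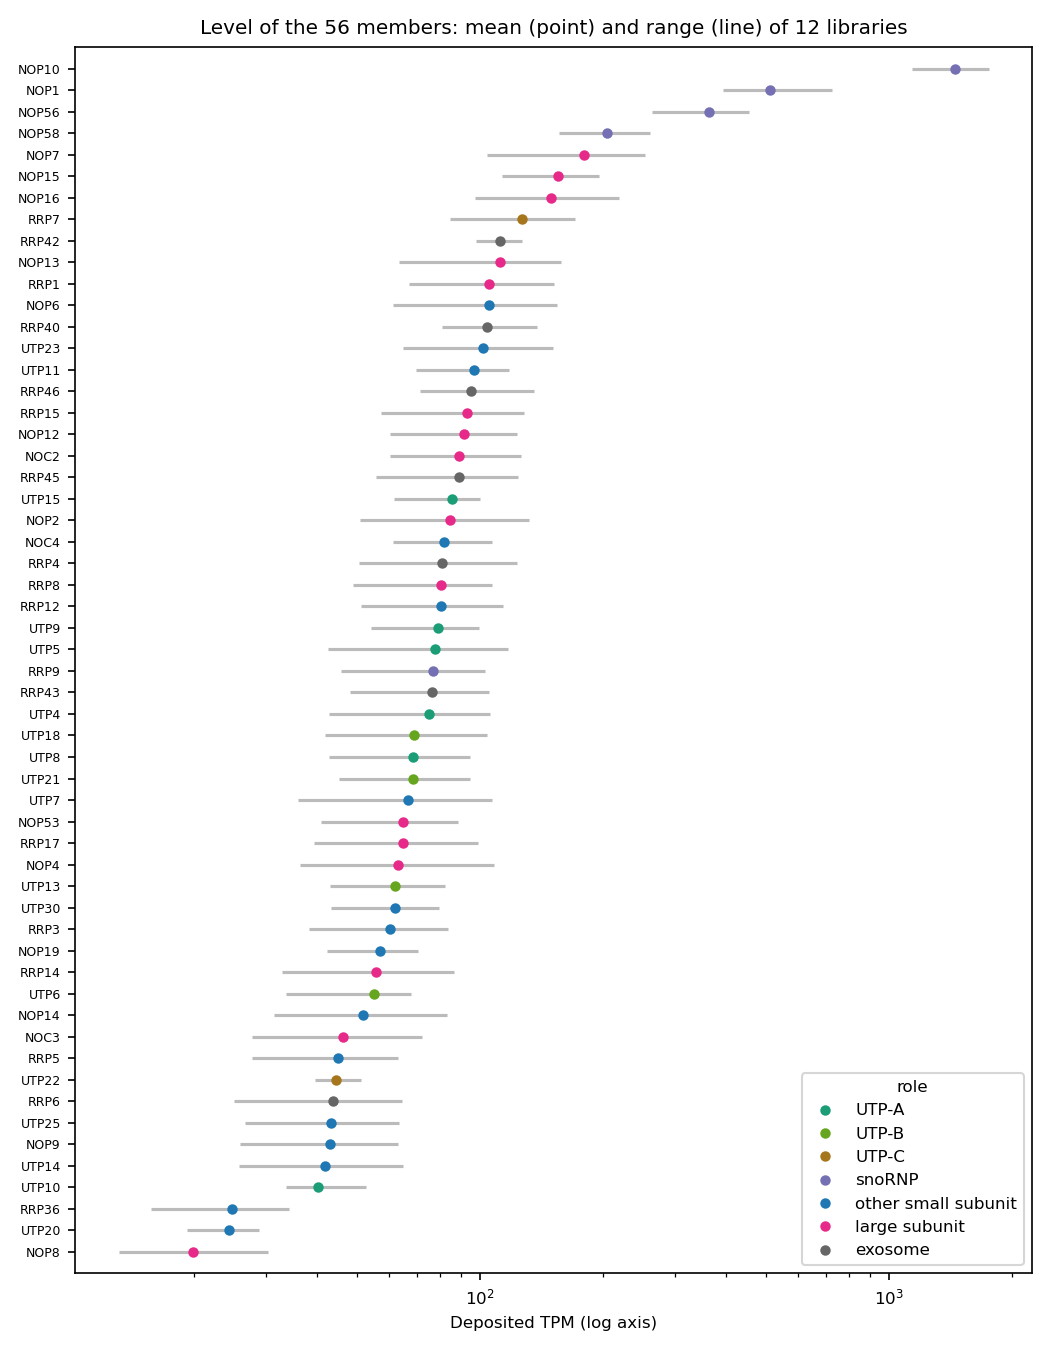
Deposited TPM of the 56 members on a log axis, with the mean of the 12 libraries as a point coloured by role and the range of the 12 libraries as a line. NOP10, NOP1 and NOP56 lie at the top at 1451, 513 and 364 TPM, and NOP8, UTP20 and RRP36 at the bottom at 19.9 to 24.8 TPM.

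Which of these genes differed after 48 h in KCl was tested in each strain with edgeR's quasi-likelihood test, Benjamini-Hochberg adjusted over the 6309 features tested at 0.05. None of the 56 members passed in crz1, where 0.571% of all features did, nor in crz1cnb1, where 0.586% did. None passed in the average of both strains either, where 3.77% of all features did. At an unadjusted p under 0.05 the edgeR counts were 1 member in crz1 (NOP14), 0 in crz1cnb1 and 1 in the average (RRP12). Over all 6309 features these counts were 536, 527 and 1016. DESeq2 called 0 members in each. The fitted log2 differences were nonetheless mostly below 0: 47 of 56 in crz1 with a median of -0.20, 44 in crz1cnb1 with a median of -0.12, and 49 in the average with a median of -0.16 and a range from -0.38 to 0.13. The medians over all features were 0.01, 0.02 and 0.02. Single libraries moved the member medians. In crz1 the median was -0.34 without the KCl library numbered 2 and -0.07 without the KCl library numbered 3. In crz1cnb1 it was -0.26 without the KCl library numbered 2, -0.02 without the 0 h library numbered 1, and 0.01 without the KCl library numbered 3, where 28 members were below and 28 above 0. The average ran from -0.24 without the crz1cnb1 KCl library numbered 2 to -0.10 without the KCl library numbered 3 of either strain. With library totals the member median was 0.05 in crz1cnb1 and -0.04 in the average, so these directions depend on the scaling and are read relative to the median of all features. In neither strain did the 3 KCl libraries of any member lie clear of the 3 libraries at 0 h. Among all features, 3.74% lay wholly below and 6.53% wholly above in crz1, and 6.01% and 7.32% in crz1cnb1.

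The pairs of equal replicate number show how these values spread. Comparing the KCl and 0 h libraries of one strain and number, 54 of 56 members were lower in the crz1 pair numbered 1 (median log2 ratio -0.29) and 46 in the pair numbered 3 (-0.26). In crz1cnb1 55 members were lower in the pair numbered 1 (-0.29) and 50 in the pair numbered 3 (-0.37). The pairs numbered 2 did not share this: in crz1 28 members were lower and 28 higher, with a median of -0.01, and in crz1cnb1 54 of 56 were higher, with a median of 0.25. All features together had medians from 0.00 to 0.05 in the 6 pairs. Relative to the median of all features in the same pair, the member median was -0.29, -0.04 and -0.32 in crz1 and -0.31, 0.23 and -0.39 in crz1cnb1, for numbers 1, 2 and 3. Another scaling shifts all features of a pair alike, so it cannot change these differences and is no check on them. The sign of each pair's own median was the same under library totals, though the median was smaller in the 4 pairs numbered 1 and 3 (-0.15 to -0.10).

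**Figure D2:**
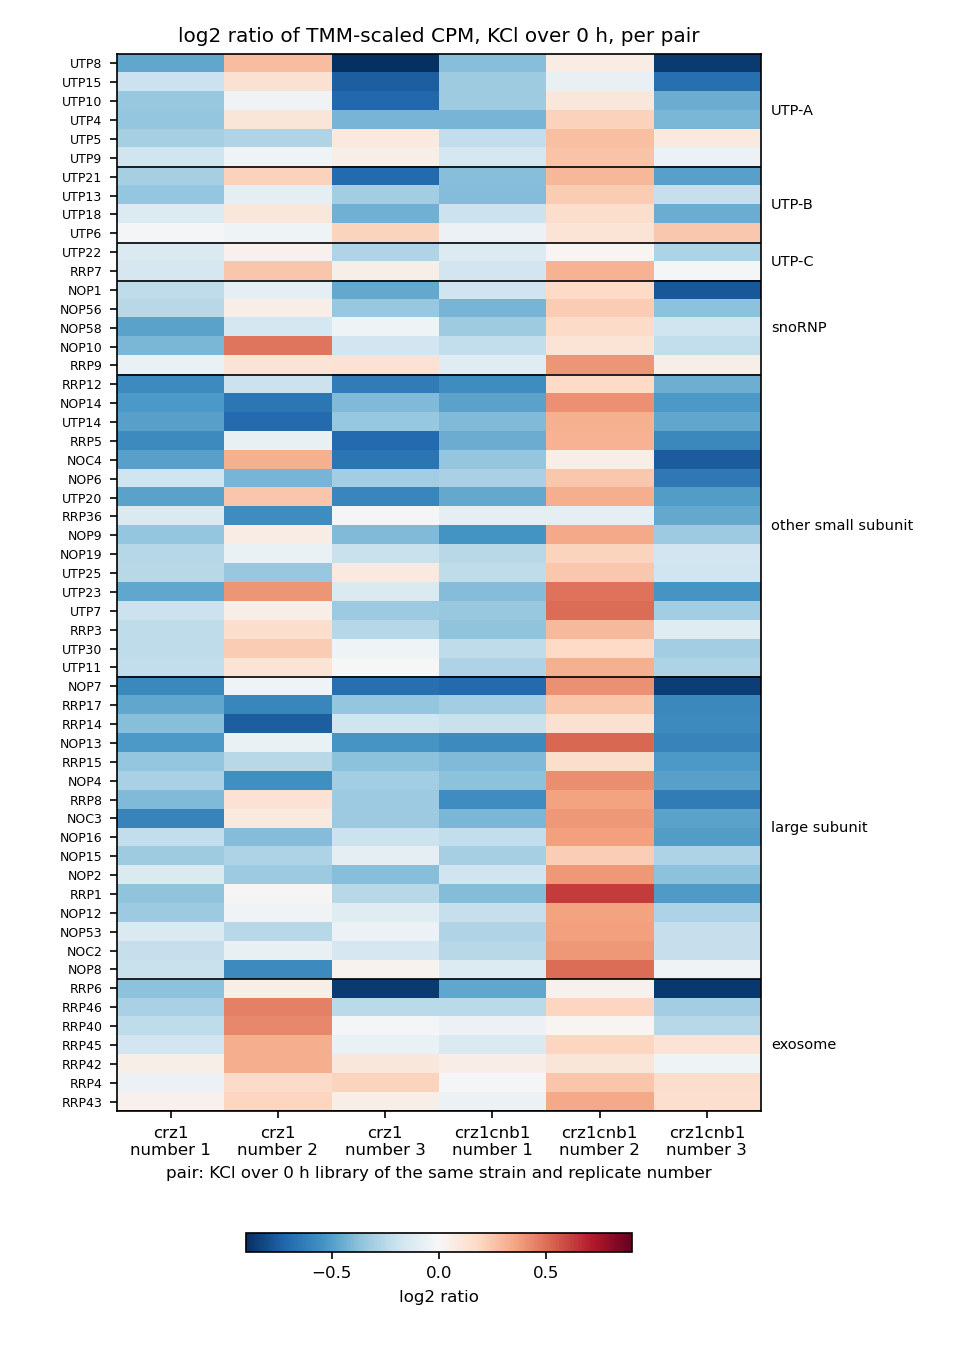
Log2 ratio of TMM-scaled CPM, KCl over 0 h, for each of the 56 members (rows, grouped by role) in the 6 pairs of equal strain and replicate number (columns), with blue for lower and red for higher in KCl. The 4 columns numbered 1 and 3 are mostly blue, the crz1cnb1 column numbered 2 is red in 54 rows, and the crz1 column numbered 2 is split between 28 lower and 28 higher rows.

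Taking members one by one, 45 (80.4%) were lower in KCl in all 4 pairs numbered 1 and 3, against 27.3% of all features. Of all members, 21 (37.5%) were lower in these 4 pairs and also higher in both pairs numbered 2, against 7.35% of all features. With library totals the 2 shares were 48.2% against 13.0%, and 17.9% against 3.74%. Counted only among those lower in the 4 pairs with TMM scaling, 21 of 45 members and 464 of 1723 features were higher in both pairs numbered 2. RRP36 was the only member lower in all 6 pairs (1.79%, against 8.05% of all features), and it was so by small margins, with ratios from -0.56 to -0.01. Under library totals 0 members were. No member was higher in all 6, against 11.3% of all features. Both pairs numbered 2 were higher in 27 members (48.2%), against 31.1% of all features.

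Whether the KCl response differed between replicate numbers was then tested, with the 2 strains as the repeats (edgeR, F test over the 3 numbers). The response of 26 members (46.4%) differed, against 21.5% of all features. This count depended on the scaling: with library totals 10 members (17.9%) passed, against 24.5% of all features, whereas DESeq2 called 26 (46.4%, against 23.7%). It also moved with single libraries. It was 43 without the crz1 0 h library numbered 2, where 26.0% of all features passed. It was 16, 17 and 14 without the crz1 KCl library numbered 1, 2 or 3, against 14.5%, 14.9% and 11.9% of all features. Without the crz1cnb1 0 h library numbered 3 it was 17, against 14.3%, and without the crz1cnb1 KCl library numbered 1 or 2 it was 16 and 17, against 13.7% and 22.5%. The share of members was above that of all features in each of these fits, and below it with library totals. The members that passed included 4 of 6 UTP-A, 3 of 4 UTP-B, 1 of 2 UTP-C, 2 of 5 snoRNP, 9 of 16 other small-subunit, 5 of 16 large-subunit and 2 of 7 exosome genes. The differences between these role counts were not tested.

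UTP8, a UTP-A subunit among the first to bind the precursor, had the smallest adjusted p of the members. It stood at 188, 197 and 238 TMM-scaled CPM (counts scaled to a common library size) in the crz1 0 h libraries numbered 1, 2 and 3 and at 136, 239.7 and 128 in crz1 KCl. In crz1cnb1 it stood at 173, 212 and 231 CPM at 0 h and at 134, 222 and 127 in KCl. In both strains the KCl libraries numbered 1 and 3 lay below every 0 h library, and the KCl library numbered 2 lay among or above them, so the groups overlapped. The log2 ratios were -0.47, 0.28 and -0.90 in crz1 and -0.38, 0.07 and -0.86 in crz1cnb1, and they differed between numbers (edgeR adjusted p = 3.52e-04). The average KCl difference was -0.33 ± 0.19 (SE, n = 3 per group), with an edgeR adjusted p of 0.446. UTP15 of the same subcomplex also differed between numbers (edgeR adjusted p = 0.00251), with ratios of -0.19, 0.14 and -0.74 in crz1 and -0.32, -0.07 and -0.68 in crz1cnb1. UTP9 had the smallest average KCl difference of the UTP-A genes, -0.03 ± 0.14 (SE).

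Of the UTP-B subunits, which bind the early precursor too, UTP21 had the largest average difference, -0.19 ± 0.17 (SE), and UTP6 the smallest, 0.06 ± 0.14. UTP21 stood at 238, 259 and 276 CPM at 0 h and 193, 299 and 170.1 in KCl in crz1, and at 256, 251 and 268 and then 197, 309 and 191 in crz1cnb1. In both strains 2 of its KCl libraries lay below and the library numbered 2 above all 3 libraries at 0 h. Its response differed between numbers (edgeR adjusted p = 0.00108). In UTP-C, UTP22 averaged -0.13 ± 0.12 and RRP7 0.06 ± 0.16 (log2, SE), and neither passed in the average.

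Among the other small-subunit factors, the responses of UTP20, NOC4, UTP23, RRP5 and NOP9 differed between numbers, with edgeR adjusted p of 6.92e-04, 0.00142, 0.00208, 0.0043 and 0.00666. UTP20 stood at 250.2, 209 and 289 CPM at 0 h and 179.6, 249 and 191 in KCl in crz1. In crz1cnb1 it stood at 265, 199.6 and 297 CPM at 0 h and at 193, 250.4 and 209 in KCl. Each KCl library numbered 1 or 3 was below its own 0 h partner and each numbered 2 above it. NOC4, which works with Nop14 in small-subunit export, had ratios of -0.49, 0.32 and -0.66 in crz1 and -0.35, 0.06 and -0.75 in crz1cnb1. UTP23, which acts with the snoRNA snR30, had the largest upward ratios of these in the pairs numbered 2, at 0.40 and 0.49. RRP5, required for both subunits, was near level in the crz1 pair numbered 2 (-0.07) and higher in that of crz1cnb1 (0.31). NOP9, a Pumilio-repeat RNA-binding protein, lost its call with library totals (edgeR adjusted p = 0.0674, over a range of 1.83e-04 to 0.0674 for its alternatives). UTP7, a processome scaffold protein, had the smallest average difference of this role, -0.04 ± 0.25 (SE).

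The fitted average was below 0 for 16 of 16 large-subunit factors, with a median of -0.19, and with library totals for 11 of 16, with a median of -0.07. Other small-subunit factors had the same counts, with medians of -0.18 and -0.06. NOP7 had the largest average difference of the 56, -0.38 ± 0.19 (SE), with an edgeR adjusted p of 0.37. It stood at 493, 495 and 405 CPM at 0 h and 329, 486 and 252 in KCl in crz1, and at 560.0, 345 and 478 and then 345, 458 and 265 in crz1cnb1. The KCl libraries numbered 2 again overlapped the 0 h group. NOC3, which binds Noc2, had ratios of -0.60, 0.09 and -0.33 in crz1 and -0.41, 0.39 and -0.48 in crz1cnb1, and its response differed between numbers (edgeR adjusted p = 0.00465). NOC2 had the smallest average difference of the role, -0.07 ± 0.17.

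The snoRNP proteins ranged from -0.31 ± 0.19 for NOP1 to 0.09 ± 0.18 for RRP9 (log2, SE), the protein specific to the U3 snoRNP. Most of the 7 exosome members lay near 0 with TMM scaling, except for RRP6. RRP6, the nuclear 3'-to-5' exonuclease of the complex, averaged -0.36 ± 0.20 (SE), while the other 6 subunits lay between -0.03 and 0.13, with 0.00 ± 0.13 for RRP40 and 0.13 ± 0.15 for RRP43. RRP6 stood at 116, 152 and 139 CPM at 0 h and 89.7, 157 and 76.5 in KCl in crz1. In crz1cnb1 it stood at 121, 145 and 140.2 CPM at 0 h and at 87.8, 148 and 76.5 in KCl. Both KCl libraries numbered 1 and 3 of each strain lay below every 0 h library, and those numbered 2 did not. Its response differed between numbers (edgeR adjusted p = 6.83e-04). All 7 exosome genes were higher in KCl in both pairs numbered 2 (6 of 7 with library totals), with medians of 0.33 in crz1 and 0.19 in crz1cnb1. The difference between exosome genes and other roles was not tested.

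**Figure D3:**
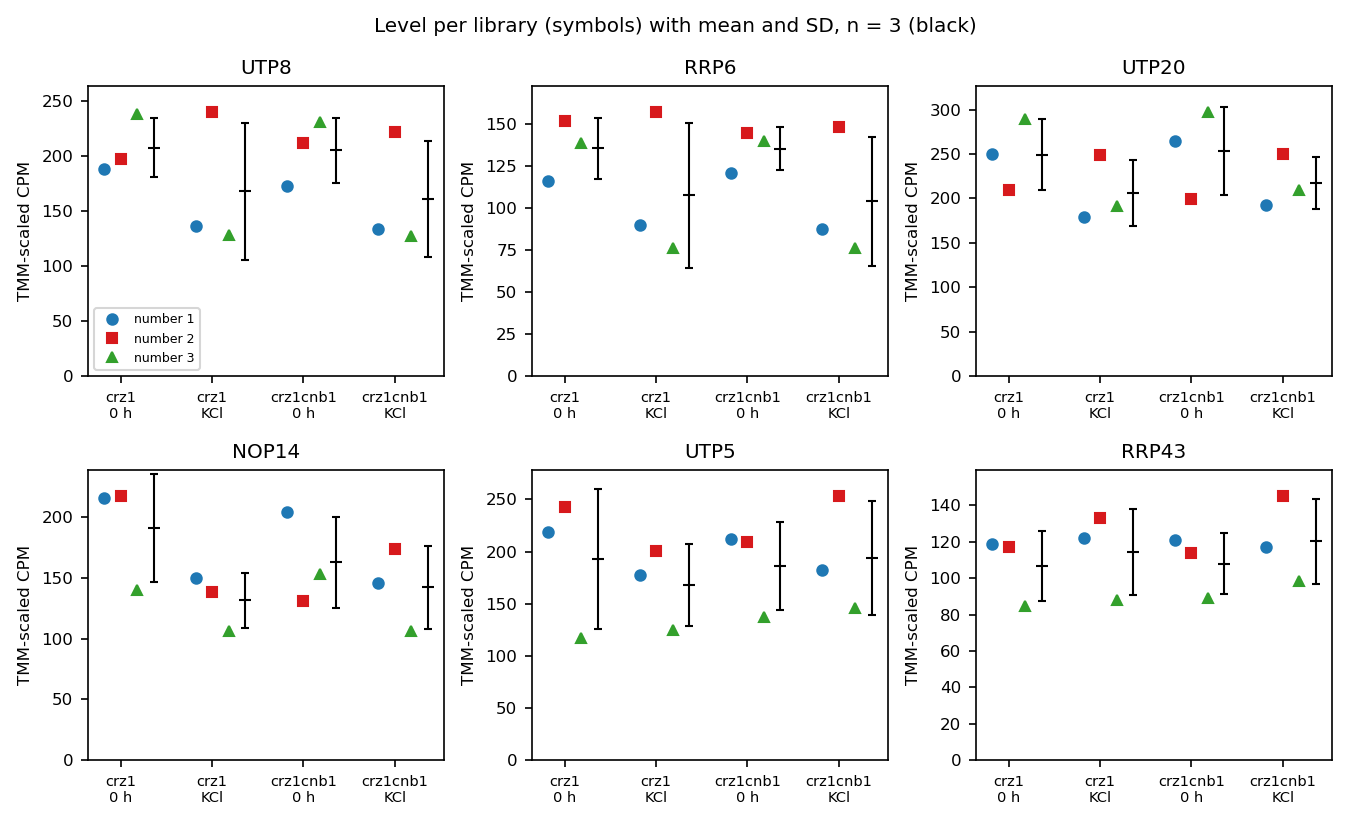
TMM-scaled CPM of 6 members in each of the 12 libraries, by group on the x axis, with circles, squares and triangles for replicate numbers 1, 2 and 3 and the mean and SD of each group of 3 in black. For UTP8 and RRP6 the red squares stay high in KCl while the other symbols drop, from 188 to 136 CPM and from 116 to 89.7 CPM for number 1 in crz1. UTP5 and RRP43 have low triangles in all 4 groups.

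With the replicate number as a block, 5 members (8.93%) fell in the average of both strains, a share near the 8.45% of all features that fell. RRP12, a HEAT-repeat protein that helps export both subunits, fell by 0.37 on the log2 scale (SE 0.10, edgeR adjusted p = 0.0292). RRP17, a nuclease of the large-subunit pathway, fell by 0.35 (SE 0.10, edgeR adjusted p = 0.0309), and RRP6 by 0.41 (SE 0.13, edgeR adjusted p = 0.0397). NOP14, a processome protein, fell by 0.37 (SE 0.11, edgeR adjusted p = 0.0403), and UTP14, which activates the helicase Dhr1, by 0.36 (SE 0.11, edgeR adjusted p = 0.0407). Without the block their edgeR adjusted p were 0.273, 0.321, 0.427, 0.329 and 0.392, and over all alternatives they ran from 0.0292 to 0.704. Pairs of the same number deviated together across strains, so the averaged tests may count 3 independent pairs as 6.

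RRP12 stood at 435, 449 and 389 CPM at 0 h and 294, 395 and 252 in KCl in crz1, and at 452, 376 and 389 and then 306, 426 and 287 in crz1cnb1. Its crz1 KCl library numbered 2 lay just above the lowest 0 h library, and in crz1cnb1 the library numbered 2 lay among the 0 h libraries. NOP14 stood at 216, 217 and 140.1 CPM at 0 h and 150.1, 138 and 106 in KCl in crz1, and at 204, 131 and 153 and then 146, 174 and 106 in crz1cnb1. Its pair numbered 2 went down in crz1 (-0.65) and up in crz1cnb1 (0.41), and the same split held for UTP14 (-0.70 and 0.32) and RRP17 (-0.59 and 0.25). Their responses did not pass the test between numbers, with edgeR adjusted p of 0.487, 0.801 and 0.617.

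Leaving out all 4 libraries numbered 2, a choice made after the libraries were seen, gave member medians of -0.27 in crz1, -0.32 in crz1cnb1 and -0.29 in the average. Then 2 members (3.57%) fell, against 1.65% of all features that fell: RRP6 fell by 0.64 (edgeR adjusted p = 0.0354) and UTP8 by 0.66 (edgeR adjusted p = 0.0476). Over the alternatives the adjusted p ran from 0.0354 to 0.704 for RRP6 and from 0.0476 to 0.73 for UTP8.

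The question in the title of the study, whether calcineurin alters the response in cells without Crz1, is the difference between the responses of the 2 strains. None of the 56 members passed this test, as none of the 6309 features did (0.0%). At an unadjusted p under 0.05 edgeR counted 0 members and 18 features, and DESeq2 called 0 members. Member differences ran from -0.38 ± 0.33 for NOP8 to 0.17 ± 0.26 for RRP40 (log2, SE), with a median of -0.06. The sign of that median depended on single libraries: it was 0.05 without the crz1 KCl library numbered 3 and 0.08 without the crz1cnb1 KCl library numbered 2, where 19 members were below and 37 above 0. It was -0.22 without the crz1 KCl library numbered 2, and -0.01 and -0.02 without the crz1 0 h library numbered 1 or 2. It lay between -0.18 and -0.16 without the crz1 0 h library numbered 3 or the crz1cnb1 libraries numbered 1 at 0 h or 3 in KCl. The members' standard errors of 0.23 to 0.50 set what this fit without a block could detect. With the replicate number as a block they ran from 0.13 (UTP6) to 0.31 (NOP7), and again 0 members passed. Without the libraries numbered 2 the median was 0.03.

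The levels of the strains were also compared directly. At 0 h, crz1 against crz1cnb1, 0 members passed (0.0159% of all features did). An unadjusted edgeR p under 0.05 was found for 0 members and 73 features, and DESeq2 called 0 members. The largest differences were 0.29 ± 0.24 for NOP8 and 0.23 ± 0.25 for NOP14 (log2, SE). In KCl 0 members passed (0.0476% of all features did). An unadjusted edgeR p under 0.05 was found for 0 members and 70 features, and DESeq2 called 0 members. The largest were -0.20 ± 0.30 for UTP5 and -0.15 ± 0.26 for NOP2, a methyltransferase of the large-subunit rRNA.

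The median log2 ratio of crz1 over crz1cnb1 was -0.02, 0.22 and -0.15 at 0 h for numbers 1, 2 and 3, against 0.00, -0.03 and -0.04 over all features. In KCl it was -0.03, -0.06 and -0.04, against 0.00 in each pair, a narrower spread than at 0 h. In the 0 h pair numbered 2, 43 of the 56 members were higher in crz1. These included 16 of 16 large-subunit factors (median 0.48), 14 of 16 other small-subunit factors (0.24) and 4 of 5 snoRNP genes (0.28), and the 109 biogenesis factors outside the name rule had a median of 0.22. In the 0 h pair numbered 3 the 16 large-subunit genes were all lower in crz1, with a median of -0.21. The 7 exosome genes had a median of -0.14 in the 0 h pair numbered 2. The KCl ratios of the large-subunit factors in the pairs numbered 2, upward in crz1cnb1 (median 0.38) and downward in crz1 (-0.25), share the libraries of that 0 h pair.

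Levels were also compared between replicate numbers over the 4 groups. In a fit with group and number, 40 of 56 members (71.4%) differed between numbers and 16 did not pass, against 59.9% of all features that differed (edgeR). The count was 30 (53.6%) without the crz1cnb1 KCl library numbered 3, against 51.4% of all features, and 30 without the crz1cnb1 0 h library numbered 1, against 47.5%. For the 26 members whose KCl response differed between numbers, this fit averages differences that were unlike at 0 h and in KCl. The median log2 deviation from the group mean was 0.07 for number 1, 0.15 for number 2 and -0.25 for number 3, where 48 members were below 0. Over all features the medians were 0.02, -0.01 and -0.02. UTP5, a UTP-A subunit, had the largest F, with deviations of 0.13, 0.33 and -0.46 (edgeR adjusted p = 5.17e-04). It stood at 219, 243 and 117 CPM in crz1 at 0 h, 178, 201 and 125 in crz1 KCl, 212, 209 and 137 in crz1cnb1 at 0 h and 182, 253 and 146 in crz1cnb1 KCl. The library numbered 3 was the lowest of its group in all 4 groups. UTP7, UTP18, RRP9, RRP43, RRP45, RRP3, UTP4 and UTP25 were likewise lowest on average in number 3, with deviations from -0.49 to -0.27 and edgeR adjusted p of 6.64e-04 to 0.00311. RRP36 was instead highest in number 1, with a deviation of 0.39 (edgeR adjusted p = 0.00312). UTP20 had the smallest F (edgeR adjusted p = 0.681), and NOP1 ran the other way, highest in number 3 at 0.34 (edgeR adjusted p = 0.00841), a call that was lost with library totals.

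Other genes of ribosome synthesis were set beside the members. The list of 109 biogenesis factors outside the name rule had pair medians of -0.36, 0.04 and -0.31 in crz1 and -0.34, 0.30 and -0.39 in crz1cnb1, close to those of the members. None of its genes passed in the average of both strains without the block, and 10 fell with it, against 8.45% of all features that fell, among them SDA1 (-0.37 ± 0.09), DRS1 (-0.40 ± 0.10) and BMS1 (-0.43 ± 0.11), all log2 with SE. The response of 59 of the 109 (54.1%) differed between numbers, against 21.5% of all features. The list of 18 RNA polymerase I genes held 1 (5.56%) that fell without the block, where 3.77% of all features passed in either direction. It was RRN3, the initiation factor that recruits the polymerase (-0.54 ± 0.10, SE, edgeR adjusted p = 0.0117). With the block RPA190 and RPA49, subunits of the enzyme, fell as well (-0.64 ± 0.14 and -0.40 ± 0.13, SE), where 8.45% of all features fell. Of the 137 cytosolic ribosomal protein genes, 11 (8.03%) had a KCl response that differed between numbers, against 21.5% of all features, and the difference from the members was not tested. Their pair medians were -0.39, 0.15 and -0.12 in crz1 and -0.25, -0.18 and -0.21 in crz1cnb1. In all 4 pairs numbered 1 and 3, 66.4% of them were lower, against 27.3% of all features. Of the RNA polymerase I genes 72.2% were lower in these 4 pairs. None of the ribosomal protein genes passed in the average without the block. With it 21 fell, against 8.45% of all features, and 1 rose, against 671 of the 6309 features. Of 14 regulators of these genes, 0 passed without the block. With it 2 of the 14 rose and 1 fell, where 671 of the 6309 features rose and 8.45% fell. CRF1, a corepressor of ribosomal protein genes, rose by 0.59 (SE 0.11, edgeR adjusted p = 0.00512). TOR2 rose by 0.22 (SE 0.07, edgeR adjusted p = 0.0433), and TOD6, a repressor that binds PAC, fell by 0.47 (SE 0.11, edgeR adjusted p = 0.014). The lists of 13 RNA polymerase III genes and 10 other exosome genes held 0 genes that passed without the block. With it RPO31 fell (-0.36 ± 0.10, SE, edgeR adjusted p = 0.0309), where 8.45% of all features fell.

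The medians of general stress genes moved with the same pairs. For 26 of them the pair medians were 1.24, -0.01 and 1.76 in crz1 and 1.07, -0.26 and 1.81 in crz1cnb1. Their summed level was 2434 to 2552 TPM in the 6 libraries at 0 h, 2965 and 2444 in the KCl libraries numbered 2 of crz1 and crz1cnb1, and 4506 to 6488 in the other 4 KCl libraries. Single stress genes spread widely in the pairs numbered 2, from -1.96 to 2.42 in crz1 and from -1.41 to 1.72 in crz1cnb1. Higher in all 6 pairs were 7 of the 26 (26.9%), against 11.3% of all features. The response of 23 of the 26 (88.5%) differed between numbers, against 21.5% of all features. In the average without the block 3.77% of all features passed in either direction. There 10 of the 26 stress genes (38.5%) rose, among them HSP12 (2.65 ± 0.19, SE, edgeR adjusted p = 4.73e-06). Their part in the values of the ribosome factors was not tested.

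**Figure D4:**
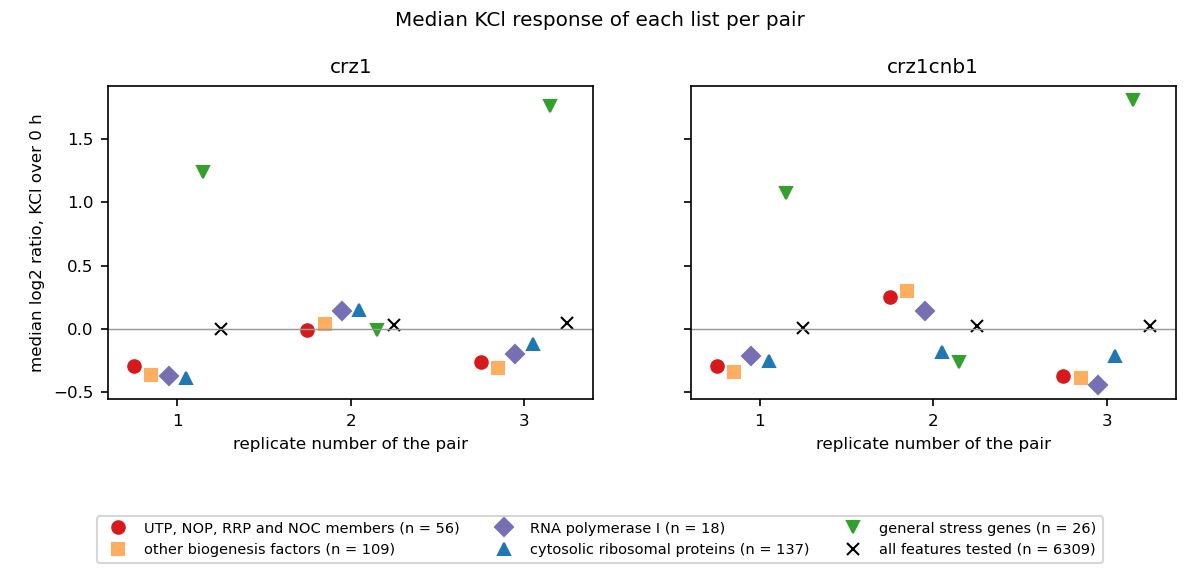
Median log2 ratio, KCl over 0 h, of 5 gene lists and of all 6309 features tested, per pair of equal replicate number, in crz1 (left) and crz1cnb1 (right). The biogenesis factors inside and outside the name rule lie between -0.39 and -0.26 in the pairs numbered 1 and 3 and between -0.01 and 0.30 in those numbered 2, while the general stress genes lie between 1.07 and 1.81 and between -0.26 and -0.01.

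The KCl values were also read by promoter element. The 30 members with both cores had a median average KCl difference of -0.19, with 29 below 0, the 17 with PAC alone -0.10, the 4 with RRPE alone -0.21 and the 5 with neither -0.03. NOP1, NOP7, NOC2 and UTP9, whose windows are given, had -0.31, -0.38, -0.07 and -0.03, so members with both cores covered most of the range. The response differed between numbers in 14 of the 30 members with both cores, 7 of the 17 with PAC alone, 3 of the 4 with RRPE alone and 2 of the 5 with neither. These values rest on TMM scaling, and the groups by element also differ in role. Of the 7 exosome genes 0 held both cores, and RRP42, RRP45 and RRP46 held neither, so element and role were not separated. The groups by element were not tested against each other.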

How the data were processed

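Polyadenylated RNA of 12 libraries in 4 groups of 3 was measured. The authors deposited whole-number counts per feature and, per the file headers, TPM. The submitters' processing notes name featureCounts, DESeq2 and the build R64; no version, aligner or strand setting is stated there, in the labels or in the file headers. Counts were fitted with edgeR 4.0.16 (limma 3.58.1, R 4.3.3): TMM factors, filterByExpr by group (6309 of 7126 features kept), robust quasi-likelihood F tests over all 12 libraries, Benjamini-Hochberg at 0.05. A standard error is the log2 difference over the square root of F. Log2 ratios of pairs use TMM-scaled CPM with a prior count of 2. DESeq2 1.42.0, other scalings, no filter, leaving out each library and a replicate block were alternatives. The models were tested on simulated counts with known changes, drawn independently for each library. That simulation does not cover deviations shared by libraries of equal number. Totals of 21305485 to 21599279 counts put the floor of 3 counts at 0.139 to 0.141 CPM; this covers counting error only.

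Replicate numbers come from the labels. Libraries of equal number deviated together from their group means (r of 0.309 to 0.827 in 18 pairs; -0.732 to 0.317 in the 36 pairs of unequal number), so the numbers pair the libraries. No 2 libraries of a group agreed within sampling noise. Members, lists and tests were chosen with earlier results of these data known. Named genes are the first 10 by adjusted p among the members called in a test, with or without the block, the largest and smallest average KCl difference per role, the 3 highest and lowest levels, members of 1 direction in all pairs, the 2 largest strain differences per treatment and the extremes of F for the replicate number.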

Additional observations from a re-analysis of the deposited data

Results flagged for a closer look

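The KCl response of 26 of the 56 members differed between replicate numbers in an F test of the difference itself (edgeR, adjusted over all features), where 21.5% of all features did. This excess depended on the scaling: with library totals 17.9% of the members passed, below the 24.5% of all features. The 10 members with the smallest edgeR adjusted p were UTP8 (3.52e-04), RRP6 (6.83e-04), UTP20 (6.92e-04), UTP21 (0.00108), NOC4 (0.00142), UTP23 (0.00208), UTP15 (0.00251), RRP5 (0.0043), NOC3 (0.00465) and NOP9 (0.00666). Each kept its call without any 1 of the 12 libraries, and all but NOP9 with library totals. Their ratios were lower in KCl in the 4 pairs numbered 1 and 3, and in those numbered 2 they ran from -0.07 to 0.49. The 2 strains are the only repeats of a number, and the labels do not say what the number stands for. No member had all 3 crz1 pairs on one side of 0 and all 3 crz1cnb1 pairs on the other. Single libraries could not be screened as outliers in groups of 3.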

How the results depend on the processing

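The count of members called for KCl in the average of both strains moved from 0 to 5 with the replicate block and to 2 without the 4 libraries numbered 2, the latter chosen after seeing the data; it was 0 under the other alternatives. The block changed no other count of member calls, and the nested block none for the strains. The count for the KCl response by replicate number moved from 26 to 10 with library totals and ran from 14 to 43 without single libraries. The strain difference in KCl, with a median of -0.05, became -0.02 with library totals and ran from -0.19 to 0.09 without single libraries. The crz1 pair numbered 1 had a median of -0.05 from the deposited TPM and -0.29 from TMM-scaled CPM. For changes seen only in the block or leave-out fits the cause was not tested. With library totals 5, 24 and 17 of the 56 members changed sign for KCl in crz1, in crz1cnb1 and in the average, all of them uncalled in either scaling. Each member had 388 counts or more in every library; edgeR estimated a common biological variation of 0.223 (coefficient of variation).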
